A study of Homo sapiens with 6 samples.

Results

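NGFR, TP63, CD44, TRIM29, SOX9, BNC1 and CDH3 are 7 genes that mark or act in the basal, stem cell bearing layer of stratified and glandular epithelia. They were followed here across 6 RNA-seq samples labelled as a human cell line, 3 of them with an shRNA against VprBP. The 7 genes were taken by symbol from a table of 21494 genes, and they were chosen by their values in these same samples, NGFR because it was high in the control samples and without counts after knockdown. Their levels and differences are therefore a description and carry no test. The labels name the cells G361, a human melanoma line, with the genotype given as WT for every sample, while their source field reads LD611. Of the samples, 3 expressed a control shRNA (Control sh) and 3 an shRNA that targets DCAF1, the gene of VprBP (VprBP sh). Per the study's methods, a lentiviral vector carried 1 shRNA sequence against the coding region of VprBP into the cells, which were then selected with puromycin, so the VprBP sh samples rest on 1 shRNA sequence. The control is described as nontargeting, and the number of lines or clones is not given in the sources used here. Whether the 3 samples of a group came from separate cultures is not given in the sources used here, so p-values measure only the spread between these samples, which may be technical.

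In stratified epithelia such as epidermis, and in the basal layer of breast, prostate and bladder epithelium, basal cells sit on the basement membrane and hold most of the cells that can renew the tissue. The transcription factor p63, encoded by TP63, is the best known regulator of this layer and acts on genes for keratins, hemidesmosomes and cell adhesion. NGFR (the p75 neurotrophin receptor) and CD44 (a receptor for hyaluronan) are surface markers used to sort such cells, CDH3 (P-cadherin) joins basal cells to each other, BNC1 (basonuclin 1) is a zinc finger protein of basal keratinocytes, TRIM29 is a tripartite motif protein abundant in basal cells, and SOX9 is a transcription factor of several epithelial progenitors. NGFR and SOX9 are also known from neural crest cells, from which melanocytes descend.

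The samples held between 18195949 and 26883948 counts in all. The share of mitochondrial genes was 1.96% to 1.98% in Control sh against 4.1% to 4.48% in VprBP sh, and the part of that difference in the results was not tested. In each group replicate 1 stood apart, with a chi-square per degree of freedom of 17.6 to 29.1 against the other replicates, where replicates 2 and 3 gave 2.5 in Control sh and 2.36 in VprBP sh. Of 253 tested genes among the 7 genes, DCAF1, the lists and the neighbours below, 14 changed in whether they passed when replicate 1 of either group was left out, and the fold changes of 8 of the 222 with a fitted value moved by over 1.5 times. Those that are named are given with and without it. DCAF1 had 688, 893 and 884 counts in Control sh against 681, 488 and 628 in VprBP sh. Normalized counts were 869 ± 90.6 and 583 ± 154 (SD, n = 3), a log2 fold change of -0.58 (SE 0.17, adjusted p = 0.0125 by edgeR). That is 1.49-fold lower, and an exact two-sided permutation test gave p = 0.1, the smallest that 3 against 3 samples allow. With scaling by library size alone it was -0.37 on the log2 scale (adjusted p = 0.0851 by edgeR), and with replicates 2 and 3 summed it was -0.46 (adjusted p = 0.0839 by edgeR). Replicate 1 of VprBP sh was the highest of its group, at 760 normalized counts against 507 and 481, and without it the log2 fold change was -0.82 (adjusted p = 0.000188 by edgeR).

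The labelled cell type was checked against marker lists. Of 16 melanocyte markers 8 had a row in the table analysed, and TYR, DCT and SOX10 were not analysed here. MLANA had 1, 1 and 2 counts in Control sh against 4, 1 and 5 in VprBP sh, while the counts of PMEL were 38, 28 and 34 against 34, 37 and 46. MITF, the master regulator of melanocytes, had 162, 154 and 170 counts in Control sh against 238, 197 and 312 counts in VprBP sh. The defining melanocyte markers were thus at or near 0 or at low counts in both groups, while basal epithelial markers were high in Control sh. KRT14, the basal keratin, had 62464 to 86797 counts there and COL17A1, the hemidesmosomal collagen, had 25132 to 29204. The Control sh samples went against the melanoma label in their basal markers, and neither group held the defining melanocyte markers at more than low counts. Whether both groups are the same cell line was not tested, and a difference between lines cannot be told apart from the effect of the shRNA in any value below. The 7 genes are therefore described by their groups' names only.

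Between Control sh and VprBP sh, 5 of the 7 genes passed the cutoffs that were used for every gene (more than a 2-fold difference with an adjusted p-value below 0.05 in edgeR), where 46.4% of the 16756 genes tested did so. Of these, 4 were lower in VprBP sh (NGFR, TP63, BNC1 and CDH3), against 22% of all genes tested, and 1 was higher (SOX9), against 24.5%. CD44 and TRIM29 did not pass. The 3 values of each group did not overlap for the same 5 genes, where 79.5% of all genes tested showed no overlap. As the genes were chosen with this comparison known, nothing is read from these counts. All 7 genes passed the filter on low counts, NGFR, BNC1 and TP63 only through their counts in Control sh. In bulk RNA a loss of cells of a type and a loss of RNA per cell cannot be told apart, which holds for every gene below.

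**Figure D1:**
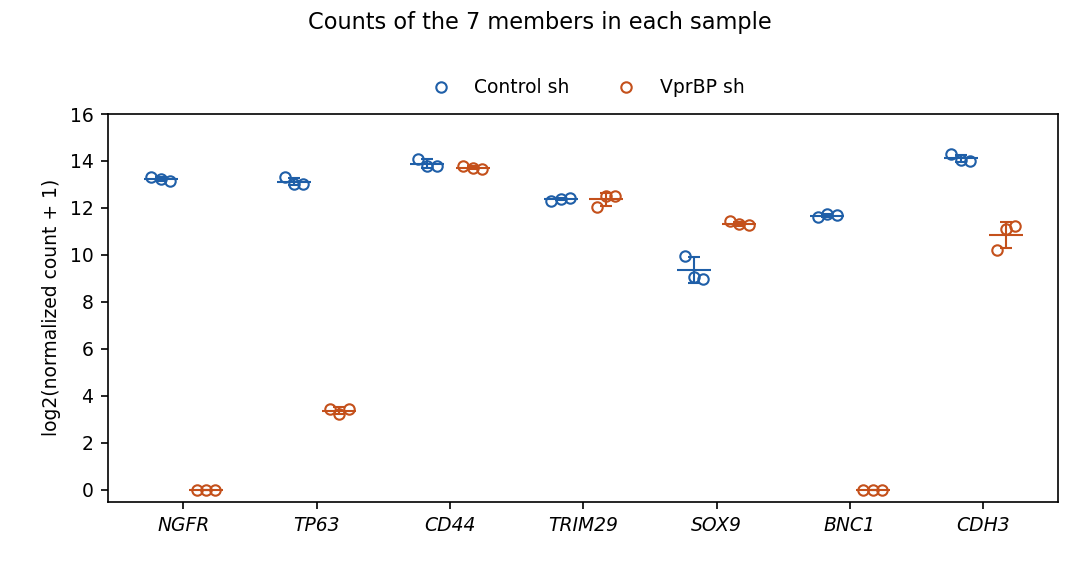
Counts of the 7 genes in each sample, as log2(normalized count + 1), for Control sh (blue) and VprBP sh (orange). Circles are samples, and the horizontal line with its bar is the mean ± SD over 3 samples on that scale. NGFR and BNC1 lie at 0 in all VprBP sh samples and TP63 near the floor, CDH3 is lower, SOX9 is higher, and the groups of CD44 and TRIM29 overlap.

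Among the surface receptors, NGFR (ENSG00000064300.9), on the plus strand at chr17:49495293-49515008 of hg38, showed the widest difference. It had 8704, 8913 and 9451 counts in the Control sh samples and 0 counts in each of the 3 VprBP sh samples. Every Control sh sample was high and close to the others, with 9579 ± 572 normalized counts (SD, n = 3), and no VprBP sh sample had a single count. A floor of 3 counts per sample, which covers counting error only, put NGFR at least 3278-fold lower in VprBP sh. Genes without a count in any VprBP sh sample numbered 609 of the 16756 tested, or 3.63%, and 64 of them averaged 1000 or more normalized counts in Control sh, as NGFR did.

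NGFR binds the neurotrophins and their uncleaved precursors, the latter together with sortilin, encoded by SORT1. The ligand BDNF was low in Control sh, with 117, 114 and 126 counts. It had 0 counts in all VprBP sh samples, at least 43.2-fold lower. The co-receptor SORT1 went the other way, from 792, 840 and 854 counts to 9090, 8325 and 11465 counts, a log2 fold change of 3.39 (SE 0.10, adjusted p = 4.82e-09 from edgeR). The related receptor SORCS2 fell (log2 fold change -5.17, SE 0.19), and so did MAGED1 (-7.58, SE 0.29), an adaptor that binds the intracellular part of the receptor. The adaptor BEX3 had 1432, 1825 and 2224 counts in Control sh against 0 counts in all VprBP sh samples. NTRK2, the receptor tyrosine kinase for BDNF, had at most 7 counts in any sample, and NTRK3 was not analysed here. Of the 27 genes listed for neurotrophin signalling 21 had a row and 19 were tested, of which 1 rose (SORT1), 7 fell and 11 did not pass. The share that passed was 42.1%, near the 46.4% of all genes tested. The median log2 fold change of the list was -0.37, against 0.08 over all genes tested. NTF4, another neurotrophin of that list, was higher than BDNF in Control sh, with 298, 398 and 437 counts. It fell to 8, 24 and 17 counts in VprBP sh (-4.67, SE 0.27). NGFR was thus expressed beside a low level of BDNF in Control sh, and in VprBP sh SORT1 was high where NGFR and BDNF had no counts.

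CD44 (ENSG00000026508.21), on the plus strand at chr11:35138882-35232402, was among the most abundant of the 7 genes in both groups. It had 15123, 12874 and 14852 counts in Control sh against 12540, 12898 and 16970 counts in VprBP sh. After normalization the Control sh samples held 17529, 13995 and 14081 counts and the VprBP sh samples 14001, 13402 and 13009, so the groups overlapped by 1 VprBP sh sample lying just above 1 Control sh sample. The log2 fold change was -0.17 (SE 0.10), and it was -0.06 without replicate 1 of Control sh and 0.04 with scaling by library size alone, so its direction is not settled by these samples. Gene counts do not separate the standard form of CD44 from its variant forms, as GENCODE lists 25 coding transcripts.

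Of 24 genes for hyaluronan synthesis and breakdown, CD44 ligands and CD44 partners, 20 had a row and 18 were tested, of which 2 rose, 10 fell and 6 did not pass, with a median log2 fold change of -1.75. The share that passed was 66.7%, against 46.4% of all genes tested. As this list was chosen with earlier results of these data known, nothing is read from that share. HAS3, a hyaluronan synthase, had 5941, 4926 and 5775 counts in Control sh against 30, 36 and 80 counts in VprBP sh (log2 fold change -7.02, SE 0.21). CEMIP, which degrades hyaluronan, fell by 5.95 on the log2 scale (SE 0.33). The matrix proteoglycan VCAN and the CD44 ligand SPP1 (osteopontin) had at most 2 counts in any VprBP sh sample, at least 239-fold and 62.5-fold lower. MSN (moesin) and EZR (ezrin), which tie CD44 to the actin cytoskeleton, fell (log2 fold changes of -2.09 and -1.57), and so did the sheddases MMP14 and ADAM10, which cleave CD44 (-4.12 and -1.93). Those that rose were HYAL3 (1.36) and ESRP2 (1.03), a splicing regulator of CD44 in epithelium, which at 0.99 did not pass without replicate 1 of Control sh. HMMR, another hyaluronan receptor, had a log2 fold change of 0.54 (SE 0.17) and did not pass the fold cutoff.

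CDH3 (ENSG00000062038.15), on the plus strand at chr16:68636189-68727468, had the highest counts of the 7 genes in Control sh. The Control sh samples had 17378, 15336 and 17390 counts and the VprBP sh samples 1050, 2095 and 3102. Normalized counts were 17767 ± 2059 in Control sh against 1909 ± 646 in VprBP sh (SD, n = 3), 9.29-fold lower (log2 fold change -3.22, SE 0.24). Replicate 1 of VprBP sh was the lowest, at 1172 normalized counts against 2177 and 2378, and without it the log2 fold change was -2.97. Unlike NGFR, TP63 and BNC1, CDH3 was still detected at over 1000 normalized counts in every VprBP sh sample.

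CDH1 (E-cadherin), the paralog of CDH3 that lies 9.82 kb from it on the same strand, had 10117 ± 557 normalized counts in Control sh against 6543 ± 823 in VprBP sh. Its log2 fold change of -0.63 (SE 0.10, adjusted p = 0.000361 from edgeR) was under the fold cutoff, so both neighbouring cadherins were lower in VprBP sh. Whether their fold changes differ was not tested. CDH2 (N-cadherin) was low in Control sh, with 65, 235 and 275 counts, replicate 1 being the lowest, and had 0 counts in all VprBP sh samples. It passed also without replicate 1 of either group. CDH5 had 340, 480 and 530 counts against 1, 2 and 3 counts, and CTNNA1 (alpha-catenin), which links cadherins to actin, fell by 2.64 on the log2 scale (SE 0.08). These 3 genes were the ones that passed among the 9 classical cadherins and catenins tested (24 listed), all lower, and the median log2 fold change was -0.71. That share of 33.3% was under the 46.4% of all genes tested.

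Of the transcription factors, TP63 (ENSG00000073282.14), on the plus strand at chr3:189631389-189897276, had 8715, 7670 and 8806 counts in Control sh against 9, 8 and 13 counts in VprBP sh. Normalized counts were 8929 ± 1015 and 9.44 ± 0.979 (SD, n = 3), a log2 fold change of -9.86 (SE 0.16), which is 930-fold lower. All 3 VprBP sh samples were above the floor of 3 counts, so a trace of TP63 RNA was measured in each. TP63 has an upstream promoter for the TA forms and an internal promoter for the ΔN forms that prevail in basal cells. Of its 12 coding transcripts in GENCODE 44, 5 start between 189631389 and 189631516 and 7 between 189789659 and 189789801, and the counts per gene do not separate them.

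The p63-linked basal list, of genes for basal keratins, integrins, laminin-332, desmosomes and hemidesmosomes, held 28 genes, all tested. Of these 22 fell, 1 rose and 5 did not pass, with a median log2 fold change of -4.16. The share that passed was 82.1%, against 46.4% of all genes tested. The list was chosen with earlier results of these data known, so nothing is read from that share. Summed normalized counts of the list ran from 468306 to 512214 in Control sh against 37620 to 38778 in VprBP sh. KRT14 had 10, 2 and 1 counts in VprBP sh (log2 fold change -14.18, SE 0.34, and -15.74 without replicate 1 of VprBP sh). COL17A1 had 1, 2 and 3 counts there, at least 10056-fold lower, and DSG3 (desmoglein 3) and SNAI2 (the transcription factor Slug) had none in any VprBP sh sample, at least 883-fold and 597-fold lower. LAMB3, a chain of laminin-332, had a log2 fold change of -10.34 (SE 0.44), and of -11.21 without replicate 1 of VprBP sh. KRT5, the partner of KRT14, fell (-4.22, SE 0.26, and -4.59 without replicate 1 of VprBP sh) and kept 2582 to 4524 counts in VprBP sh. The integrins ITGA6 and ITGB4 of the hemidesmosome fell too (-3.81 and -4.48). ZNF750, a differentiation factor that p63 induces, rose from 181 ± 45.1 to 897 ± 142 normalized counts (log2 fold change 2.31, SE 0.19). DST, FRAS1, CLCA2, FGFR2 and NECTIN1 did not pass, among them CLCA2 with a log2 fold change of 0.58.

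TP73, a paralog of TP63, fell from 1493 ± 116 to 559 ± 172 normalized counts (-1.41, SE 0.20, and -1.18 without replicate 1 of VprBP sh). In the list of TP63 relatives and regulators, 3 of the 13 genes tested rose, 4 fell and 6 did not pass, with a median log2 fold change of 0.19. The share that passed was 53.8%, against 46.4% of all genes tested. ITCH and WWP1, ubiquitin ligases that act on p63, fell (-1.43 and -1.32).

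BNC1 (ENSG00000169594.14), on the minus strand at chr15:83255884-83284664, resembled NGFR. It had 2708, 3111 and 3478 counts in Control sh against 0 counts in each VprBP sh sample. The Control sh samples lay close together at 3273 ± 123 normalized counts (SD, n = 3), and the floor of 3 counts put BNC1 at least 1120-fold lower in VprBP sh. Its paralog BNC2 was low, at 64.1 ± 5.71 normalized counts in Control sh against 0.346 ± 0.6 in VprBP sh, at least 21.9-fold lower.

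SOX9 (ENSG00000125398.8), on the plus strand at chr17:72121020-72126416, was the 1 gene of the 7 that was higher in VprBP sh. It had 868, 495 and 535 counts in Control sh against 2464, 2435 and 3219 counts in VprBP sh. Normalized counts were 684 ± 280 and 2583 ± 149 (SD, n = 3), 3.79-fold higher (log2 fold change 1.92, SE 0.23). Replicate 1 of Control sh, at 1006 normalized counts, lay above the other two, at 538 and 507, and without it the log2 fold change was 2.30. The VprBP sh samples, from 2468 to 2751, were all above the Control sh samples.

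In the SOX family, a group of transcription factors with an HMG box, 9 of 19 genes listed had a row and 8 were tested. Of these 4 rose, 3 fell and 1 did not pass, with a median log2 fold change of 0.64. The share that passed was 87.5%, against 46.4% of all genes tested, in a list chosen with earlier results of these data known. SOX11 had 0 counts in all Control sh samples and 1974, 2839 and 3773 counts in VprBP sh, at least 840-fold higher. SOX4, of the same SOXC group as SOX11, rose by 2.45 on the log2 scale (SE 0.08) and SOX18 by 3.06 (SE 0.38). SOX15, known from keratinocytes, had 2080, 2510 and 2828 counts in Control sh against 3, 16 and 23 counts in VprBP sh (-7.62, SE 0.26), and SOX7 fell by 4.58 (SE 0.10). SOX8 and SOX10, the SOXE relatives of SOX9, were not analysed here.

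TRIM29 (ENSG00000137699.17), on the minus strand at chr11:120111286-120185529, had 4389, 4931 and 5774 counts in Control sh against 3815, 5662 and 7657 counts in VprBP sh. Normalized counts were 5087, 5360 and 5474 in Control sh and 4259, 5883 and 5870 in VprBP sh, so the VprBP sh samples lay on both sides of the Control sh samples. The log2 fold change was 0.01 (SE 0.12), with 0.14 when replicate 1 of VprBP sh was left out and -0.11 with DESeq2. TRIM29 and CD44 thus stayed abundant in VprBP sh samples that held hardly any TP63, KRT14 or COL17A1 RNA. Of the other 50 TRIM genes in the table, which encode mostly ubiquitin ligases, 46 were tested, of which 14 rose, 12 fell and 20 did not pass. Their median log2 fold change was 0.10 and turned to -0.02 with DESeq2. A share of 56.5% of them passed, against 46.4% of all genes tested. Among those with a mean of 100 or more normalized counts in the higher group, the widest differences were in TRIM24 (3.25, SE 0.10), TRIM17 (-5.89, SE 0.26), TRIM47 (-2.84, SE 0.12) and TRIM68, which had 160 to 198 counts in Control sh against none in VprBP sh.

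Levels of different genes were compared as normalized counts per kb of exon sequence. In Control sh the order from high to low was CDH3 (2780 ± 322), NGFR (2313 ± 138), CD44 (1521 ± 202), TP63 (1194 ± 136), BNC1 (668 ± 25.2), TRIM29 (529 ± 19.8) and SOX9 (174 ± 71.1), and no neighbours in that order overlapped. In VprBP sh the order was CD44 (1348 ± 50), SOX9 (657 ± 37.9), TRIM29 (532 ± 93), CDH3 (299 ± 101) and TP63 (1.26 ± 0.131), with NGFR and BNC1 both at 0. Among 15316 protein-coding genes ranked per kb, CDH3, NGFR, CD44 and TP63 stood at ranks 267, 337, 586 and 800 in Control sh. In VprBP sh CD44 stood at rank 528, CDH3 at 3337 and TP63 at 13478, while SOX9 moved from rank 5208 to 1421. The order depended on the length taken. Per kb of the longest transcript TRIM29 had 1783 in Control sh, close to TP63 at 1806 and above BNC1 at 687, and 1793 in VprBP sh, above SOX9 at 657. CD44 then had 2799 in Control sh, level with NGFR at 2811, so NGFR lay apart from CD44 with the exon length and not with this one.

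**Figure D2:**
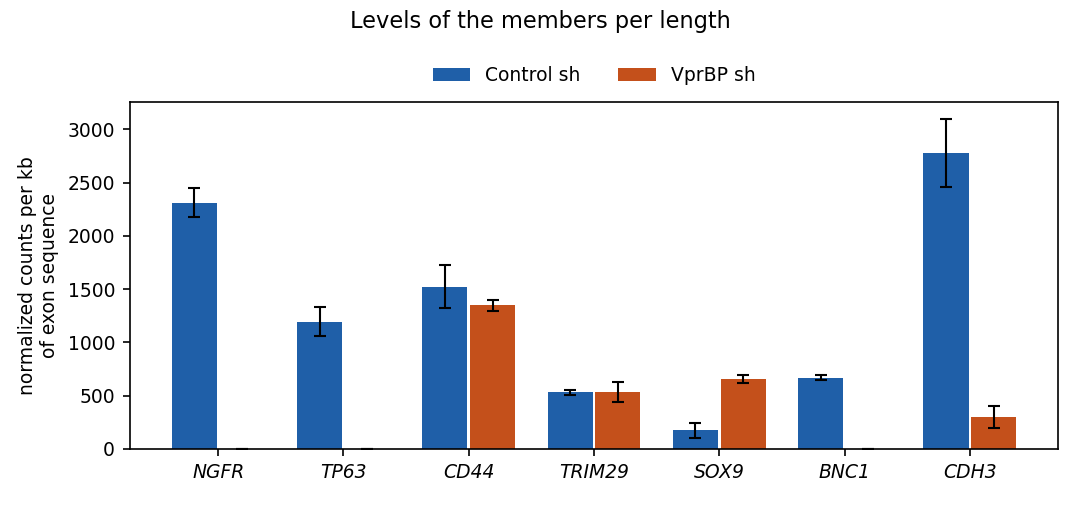
Levels of the 7 genes per length, in normalized counts per kb of exon sequence. Bars are means over 3 samples for Control sh (blue) and VprBP sh (orange), with error bars of 1 SD. CDH3 and NGFR are the highest in Control sh and CD44 is the highest in VprBP sh, where NGFR and BNC1 are at 0 and TP63 is at 1.26.

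Lists of markers for other cell types were read out beside these genes. They too were chosen with earlier results of these data known, so nothing is read from the shares that passed. Of 28 luminal and urothelial markers 23 had a row and 21 were tested, of which 12 rose, 3 fell and 6 did not pass, with a median log2 fold change of 1.04, where 24.5% of all genes tested rose and 22% fell. Their summed normalized counts ran from 120541 to 122192 in Control sh against 171188 to 224075 in VprBP sh. SPDEF, a factor of secretory luminal cells, had 11, 14 and 26 counts in Control sh against 4888, 6373 and 8711 counts in VprBP sh (log2 fold change 8.44, SE 0.19). The tight junction gene CLDN3 had 17, 9 and 3 counts against 2211, 3922 and 5032 counts (8.38, SE 0.37), and GATA3, the luminal transcription factor, rose by 9.02 (SE 0.38). Without replicate 1 of Control sh these values were 9.12 and 11.24. XBP1 and FOXA1 rose by 3.58 and 2.02, and the keratins KRT8 and KRT19 of luminal cells by 1.04 and 1.01, which without replicate 1 of Control sh were 0.95 and 0.99 and did not pass. UPK1B and PGR were at 0 in all VprBP sh samples. The summed level of the luminal list was thus higher in the samples in which that of the basal list was lower, though single luminal markers went either way, and the part of the luminal markers in the values of the 7 genes was not tested.

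**Figure D3:**
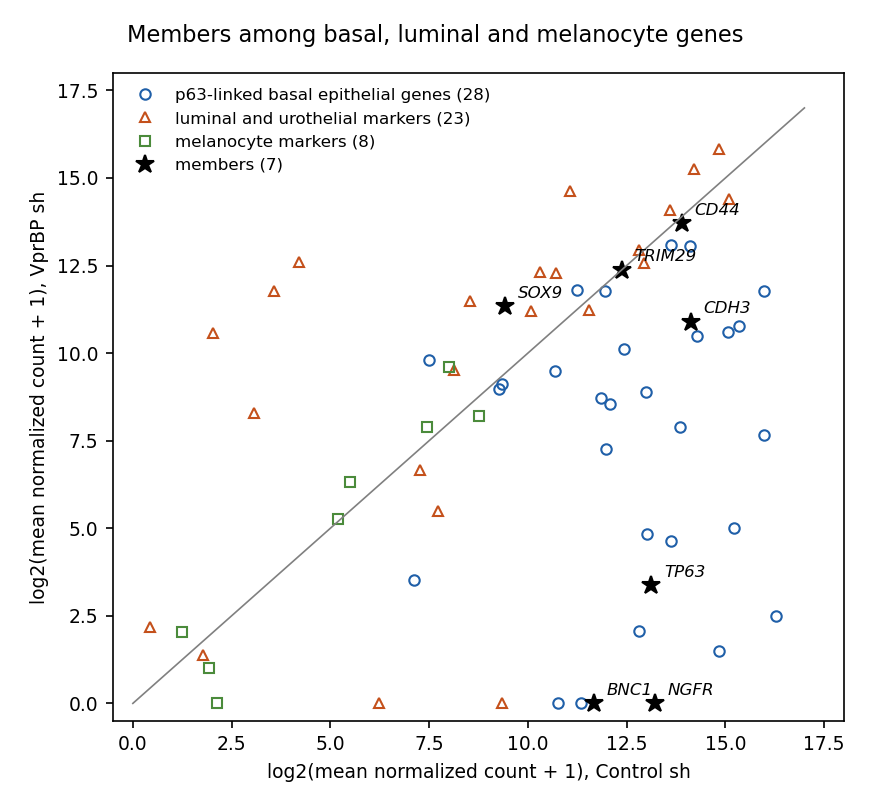
Mean levels in VprBP sh (vertical axis) against Control sh (horizontal axis), both as log2(mean normalized count + 1) over 3 samples. Circles are the 28 p63-linked basal genes, triangles 23 luminal and urothelial markers, squares 8 melanocyte markers and stars the 7 genes, and the line marks equal levels. Most basal genes lie below the line, luminal markers on both sides with more above it, and the melanocyte markers at low levels in both groups.

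Of 24 stem and progenitor markers listed, 21 had a row and 20 were tested, of which 4 rose, 6 fell and 10 did not pass (median log2 fold change -0.40). The share that passed was 50%, near the 46.4% of all genes tested. Their summed normalized counts were 76020 to 89529 in Control sh against 70228 to 78847 in VprBP sh. ALDH1A1, an aldehyde dehydrogenase used to sort progenitors, had 8, 7 and 10 counts in Control sh against 4827, 4614 and 6243 counts in VprBP sh (9.13, SE 0.14). LRIG1 and CD24 rose by 3.43 and 2.31, and PROM1 (CD133) was at 0 in Control sh and at 47.1 ± 3.21 normalized counts in VprBP sh. PROCR, a protein C receptor of mammary progenitors, fell from 1461 ± 58.7 to 5.52 ± 1.25 normalized counts (-7.98, SE 0.16), and DLK2 fell by 6.39. The transporter ABCG2 had 267, 270 and 332 counts against 0 in all VprBP sh samples, and the integrin ITGB1 fell by 2.76. The markers that rose and those that fell thus include genes used for sorting progenitors of different tissues.

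Of 17 neural crest markers 12 had a row and 11 were tested, of which 1 rose and 7 fell (median log2 fold change -3.25), and their sum ran from 7270 to 9218 normalized counts in Control sh against 3665 to 3756 in VprBP sh. SNAI2 and TWIST1 were at 0 in all VprBP sh samples. MSX1 had at most 1 count there, and NES and L1CAM fell (-5.05 and -5.82, the latter -8.14 without replicate 1 of VprBP sh). The 1 that rose was FOXD3 (2.33), which passed also without replicate 1 of either group. TFAP2A did not pass (-0.09), with 3349 ± 492 normalized counts in Control sh against 3151 ± 64 in VprBP sh, most of the sum of the list there. Of 10 myoepithelial and smooth muscle markers 7 were tested, of which 6 fell and none rose (median -1.41), with sums of 9497 to 9847 against 1998 to 2488. ACTA2 (smooth muscle actin) had 445, 380 and 390 counts against 6, 0 and 8 counts, and MME (CD10) fell by 4.63. Of 15 fibroblast and mesenchymal markers 9 were tested, of which 7 fell and 1 rose, with sums of 30757 to 34781 against 722 to 953. The median was -6.56, or -3.83 with genes at the floor set to their bound. FN1 (fibronectin) fell (-6.87) and so did FAP (-4.68), whereas VIM (vimentin), the defining mesenchymal filament, had 0, 1 and 0 counts in Control sh against 50, 24 and 17 in VprBP sh. Of the 5 melanocyte markers tested, MC1R rose by 1.62 (SE 0.12) and 4 did not pass, and the sum of the list ran from 908 to 982 against 1398 to 1486. Shares that passed were 72.7%, 85.7%, 88.9% and 20% for the neural crest, myoepithelial, fibroblast and melanocyte lists, against 46.4% of all genes tested. The part of these lists in the values of the 7 genes was not tested.

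**Figure D4:**
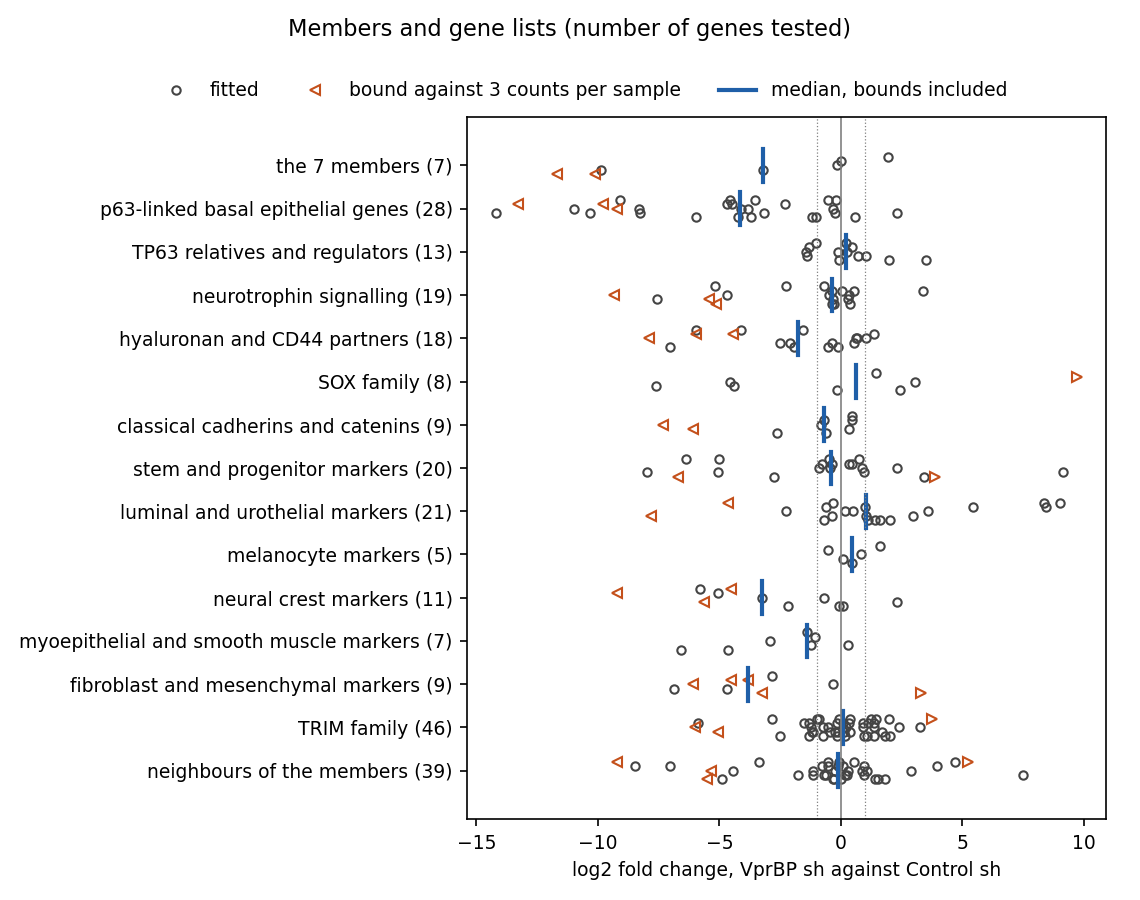
Log2 fold changes of VprBP sh against Control sh for the 7 genes and for each gene list, with the number of genes tested in brackets. Circles are fitted values, triangles are bounds against a floor of 3 counts per sample for genes at or under it in all samples of a group, blue bars are medians with bounds included, and dotted lines mark a 2-fold difference. The p63-linked basal list has its median at -4.16 and the luminal and urothelial list at 1.04.

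The genes around each of the 7 on its chromosome were read out as the 3 nearest protein-coding genes of the table on each side. Of 42 such neighbours 39 were tested, of which 9 rose, 11 fell and 19 did not pass, a share of 51.3% against 46.4% of all genes tested. Their median log2 fold change was -0.10 and turned to 0.11 with scaling by library size alone. Around TP63 all 6 neighbours, which lie 59451 to 1885663 bases away, passed. P3H2, a prolyl hydroxylase 59.5 kb away, had 2432, 4060 and 4635 counts in Control sh against 18, 5 and 11 in VprBP sh (-8.47, SE 0.33, and -9.08 without replicate 1 of VprBP sh). TPRG1 was at least 40.2-fold lower, the claudins CLDN1 and CLDN16 fell (-3.36 and -4.90) as did LPP (-1.77), and BCL6 rose (1.52). Around BNC1, HDGFL3, which lies 48.1 kb away, had 1447, 1587 and 1865 counts in Control sh and SH3GL3 had 131, 104 and 145, and both were at 0 in all VprBP sh samples, like BNC1 itself.

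Around the other genes the neighbours differed in either direction. SLC1A2, a glutamate transporter 18.8 kb from CD44, had 1, 0 and 0 counts in Control sh against 64, 141 and 189 counts in VprBP sh, where CD44 differed little. POU2F3, a transcription factor of tuft cells 51.1 kb from TRIM29, rose by 7.49 on the log2 scale (SE 0.22), from 11, 9 and 5 to 1280, 1650 and 2224 counts, where TRIM29 differed little. Near CDH3, SMPD3 rose by 4.70, against the direction of CDH3, and HAS3 fell by 7.02, in its direction. Of the 5 neighbours of NGFR tested, NXPH3 fell by 4.44 and 4 did not pass, and of the 4 of SOX9 tested, SLC39A11 rose by 1.40 and 3 did not pass. The neighbours of NGFR lie 60862 to 264505 bases away and those of SOX9 519532 to 2793775 bases.

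**Figure D5:**
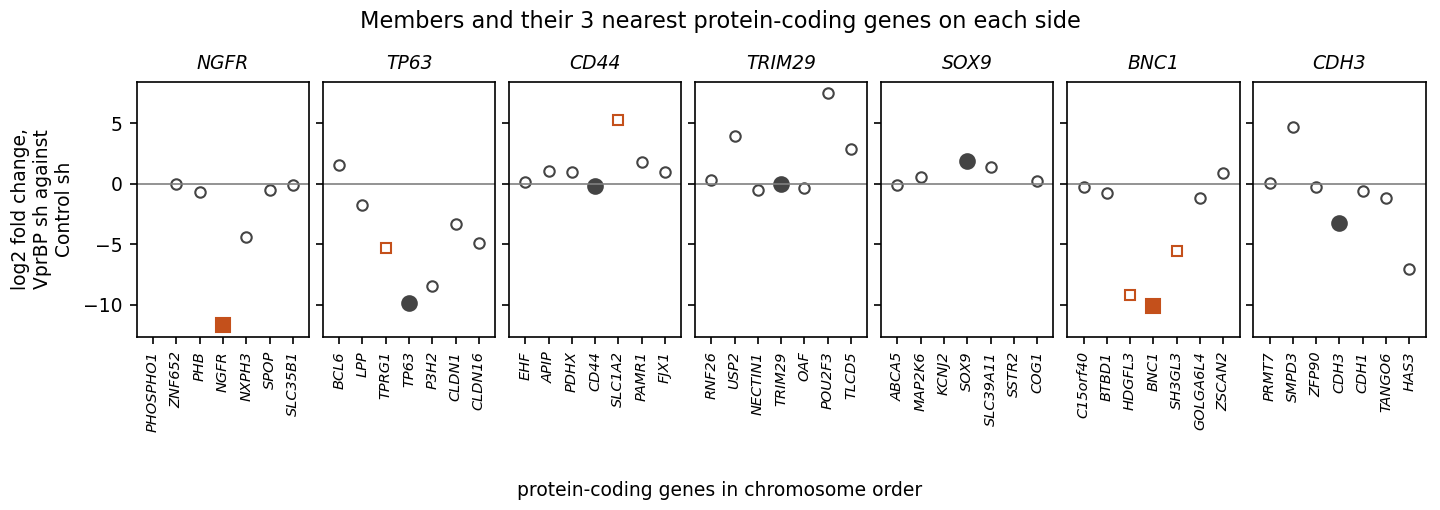
Log2 fold changes of VprBP sh against Control sh for each of the 7 genes (filled) and the 3 nearest protein-coding genes of the table on each side (open), in chromosome order and not to scale. Orange squares are bounds against a floor of 3 counts per sample, and genes without a point were not tested. All 6 genes around TP63 are away from 0. The genes around NGFR, apart from NXPH3, and those around SOX9 mostly lie nearer to it, and the distances to the genes differ widely.

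No protein-coding gene overlaps any of the 7 genes in GENCODE 44, and whether the counting used strand is not given in the sources used here, so reads of antisense transcripts may not be kept apart. The antisense counts were small beside those of the genes. NGFR-AS1 had 6, 12 and 21 counts in Control sh against 0 in all VprBP sh samples. CD44-DT had 12, 7 and 10 counts against 67, 39 and 74, SOX9-AS1 had 10, 1 and 4 against 20, 21 and 21, and CDH3-AS1 had 8, 11 and 13 against 22, 37 and 37. NGFR-AS1 and SOX9-AS1 differed in the direction of their gene, CDH3-AS1 was higher where CDH3 was lower, and CD44-DT was higher where CD44 differed little.

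The promoters of TP63 and BNC1, 2 genes with few or no counts in VprBP sh, are shown beside that of CD44, whose counts overlapped between the groups, to let their base composition be compared. The sequences are the 250 bases before the RefSeq transcript start on GRCh38.p14, read 5′ to 3′ on the strand of the gene, and NGFR, TRIM29, SOX9 and CDH3 are only named. Capitals mark matches on either strand to the letters of a GC box (GGGCGG) or a CCAAT box (CCAAT). The TP63 window is the one before the upstream start, at chr3:189631139-189631388, the CD44 window is at chr11:35138921-35139170, and the BNC1 window is at chr15:83284665-83284914.
TP63: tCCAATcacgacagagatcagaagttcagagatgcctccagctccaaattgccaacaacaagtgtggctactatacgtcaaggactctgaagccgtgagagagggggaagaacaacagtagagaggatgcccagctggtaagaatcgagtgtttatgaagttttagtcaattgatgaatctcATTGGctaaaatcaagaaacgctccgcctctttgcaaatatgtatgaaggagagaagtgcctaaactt
CD44: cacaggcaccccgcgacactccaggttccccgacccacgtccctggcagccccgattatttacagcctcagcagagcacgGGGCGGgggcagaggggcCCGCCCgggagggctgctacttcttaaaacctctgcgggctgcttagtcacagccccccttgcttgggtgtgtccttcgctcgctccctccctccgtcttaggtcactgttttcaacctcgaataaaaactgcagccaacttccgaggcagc
BNC1: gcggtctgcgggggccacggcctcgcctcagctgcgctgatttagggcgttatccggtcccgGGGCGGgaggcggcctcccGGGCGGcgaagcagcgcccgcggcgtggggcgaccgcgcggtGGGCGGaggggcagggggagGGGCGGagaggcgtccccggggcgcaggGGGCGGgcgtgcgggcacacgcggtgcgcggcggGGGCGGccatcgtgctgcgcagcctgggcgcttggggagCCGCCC

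The 3 windows differed widely in composition. That of TP63 had a GC content of 44% with 6 CpG dinucleotides, that of CD44 62.4% with 15, and that of BNC1 81.6% with 39, where the medians over 35116 promoters were 58% and 11. The BNC1 window held 7 GC boxes and the CD44 window 2, and 42.6% of all promoters held at least 1. The TP63 window held none, and it had 2 CCAAT boxes, which 32% of all promoters held at least once. A window before a second BNC1 start, at chr15:83283458-83283707, had a GC content of 72.4% and 1 GC box. The letters of a TATA box (TATAAA), an AP-1 site (TGANTCA) and an E-box (CAGGTG), present in 10.7%, 6.57% and 17.5% of all promoters, were not found in any of these windows on either strand. Of the 3 windows, those of the genes with few or no counts in VprBP sh thus had both the lowest and the highest GC content. The window before the internal TP63 starts was not examined, and counts per gene do not show which TP63 start was used. The CD44 window lies within the span of CD44 given above. A match of letters is a description only.

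The genes whose profiles over the 6 samples were most like each of the 7 were found by the Euclidean distance between values of log2(normalized count + 1), each minus its own Control sh mean, among 12809 genes that averaged 100 or more normalized counts in the higher group. For NGFR these were LDHB (0.22), DKK3 (0.24) and IL1A (0.37), each abundant in every Control sh sample and 0 in every VprBP sh sample. For TP63 they were ARMCX3 (0.20), FHOD3 (0.32) and BTBD11 (0.34). Unlike TP63, these 3 had 0 counts in every VprBP sh sample. They averaged 850 to 936 normalized counts in Control sh, where TP63 averaged 8929. For BNC1 the nearest were TGM2 (0.22), PDPN (0.24) and NID1 (0.47). SLC19A3 (0.12), GATA2 (0.17) and HES2 (0.18) were nearest to CDH3, and all 3 were lowest in replicate 1 of VprBP sh, as CDH3 was. For SOX9 they were TET3 (0.27), ZNF490 (0.32) and PUS3 (0.34), and all 3 shared the high value of replicate 1 of Control sh. CD44 was nearest to KANSL1 (0.08), ZHX3 (0.10) and CA5BP1 (0.12), and TRIM29 to E2F1, MGLL and KCNN4 (0.11 each). The distances rest on 6 samples in 2 groups, so any gene with a difference of like size on that scale lies near. For a gene at 0 in VprBP sh, that size is set by its Control sh level and the added 1.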

How the data were processed

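RNA-seq of 3 Control sh and 3 VprBP sh samples was used. The authors aligned single-end reads to hg38 with STAR and GENCODE gene models, counted them with Partek Flow, and deposited estimated counts per gene, neither normalized nor pooled. The labels name a SMARTER library kit and the study's methods a strand-specific KAPA kit. Of the deposited values 59.4% were whole numbers, and all were rounded to whole counts before any test.

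The 7 genes and all gene lists were chosen with earlier results of these data known. All 6 samples were fitted with edgeR 4.0.16 in R 4.3.3 (quasi-likelihood test, upper quartile factors at quantile 0.75, low-count filter with a minimum of 10, no replicate block), in place of Partek's own gene-specific test, and 16756 genes were tested. Adjustment over these genes followed Benjamini and Hochberg. Genes passed below an adjusted p-value of 0.05 with more than a 2-fold difference, the study's cutoffs. At these cutoffs 7778 genes passed here, 4097 higher and 3681 lower in VprBP sh. With its own test the study reported far fewer, a larger part of them upregulated, and the reason was not tested. Normalized counts are counts divided by the effective library size relative to its mean. Standard errors are log2 fold changes over the root of F. Where all samples of a group had at most 3 counts, which are 2.3 to 3.48 normalized counts, the fold is a bound against that floor. Medians of lists use fitted values unless stated.

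The rule for names took the 7 genes, DCAF1, their paralogs, ligands and co-receptors, defining markers, overlapping genes, the 3 most similar profiles, and per list up to 4 passing genes with the largest fold changes whose higher group averaged 100 or more normalized counts. Other genes named in lists or as neighbours were chosen after their values were seen. Some genes that the rule or the lists hold are not reported here. Exon lengths, transcripts and overlaps came from GENCODE 44, and promoters from RefSeq, which held 3 of the 7 genes. Python 3.11.15 with numpy 2.4.6, pandas 2.3.3 and matplotlib 3.10.9 was used. Tests were checked on simulated counts in which few genes differed and no replicate stood apart, unlike in these data. Alternatives were TMM factors, library size alone, DESeq2 1.42.0, limma-voom (limma 3.58.1), no filter, a minimum of 10 counts in every sample, a replicate block, testing against 2-fold, omitting each sample, summing replicates 2 and 3, and the longest transcript as length.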

Additional observations from a re-analysis of the deposited data

How the results depend on the processing

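With at least 10 counts asked for in every sample, which by construction removes genes without counts in a group, 13103 genes were tested and 4690 passed, and among the 7 genes 4 were tested and 2 passed (SOX9 and CDH3). Under that filter 3 genes passed for neurotrophin signalling, 4 for the SOX family, 1 for cadherins and catenins, 5 for stem and progenitor markers, 1 for neural crest markers, 1 for fibroblast markers and 11 of the neighbours. Melanocyte markers that passed numbered 2 with library size alone and 2 without a filter. Elsewhere all counts stayed within 1.5 times the main ones, and 5 of the 7 genes passed in the 14 other settings. DCAF1 had log2 fold changes of -0.37 with library size alone (adjusted p = 0.0851 from edgeR) and -0.46 with replicates 2 and 3 summed (0.0839). The cause of these shifts was not tested. In edgeR's test against a 2-fold change DCAF1 had -0.58 (adjusted p = 1), the same value as in the main fit. That test asks for a difference of over 2-fold, so it does not bear on smaller ones. Without 1 sample each it ran from -0.82 to -0.46.

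The replicate numbers did not pair the samples, as the deviations of same-numbered samples correlated at -0.24, -0.10 and -0.19 across 11006 genes. With a replicate block 7686 genes passed, 5 of the 7 among them, and DCAF1 had -0.60. The median of all genes tested moved from 0.08 to 0.29 with library size alone. Under the scalings, filters and samples tried, the bounds of NGFR ran from -12.03 to -11.46 and of BNC1 from -10.45 to -9.92 on the log2 scale, and values ran from -10 to -9.65 for TP63, -3.41 to -2.97 for CDH3, 1.74 to 2.3 for SOX9, -0.3 to 0.04 for CD44 and -0.11 to 0.22 for TRIM29. Depth limits the zeros, which allow up to 3 counts per sample, and with 3 samples a group an exact test of a single value cannot go below 0.1.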
